A study of Mus musculus with 4 samples.

Results

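The nuclear genes of the mitochondrial respiratory chain and of the ADP/ATP carriers were described on 4 expression arrays of mouse stem cell cultures. Members were taken by gene symbol: the Nduf genes, grouped as complex I (without the Ndufaf assembly factors), Sdha to Sdhd of complex II, the Uqcr genes of complex III, the Cox4 to Cox8 genes of complex IV, and the carriers Slc25a4, Slc25a5 and Slc25a31. This gave 72 of the 18193 genes measured: 36 of complex I, 4 of complex II, 8 of complex III, 17 of complex IV, 3 carriers, and 4 Sdhaf assembly factors of complex II whose symbols match the same prefix and which are kept apart from the subunits. The members lie on 19 chromosomes, and all 72 were found in the RefSeq gene table of assembly GRCm38.p6. Complexes were assigned by symbol prefix, so Ndufa4 and its paralogue Ndufa4l2 count under complex I by name only. Cox7b was not analysed here.

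Each of the 4 cultures has 1 array. GS cells (germline stem cells) are spermatogonial stem cells propagated from mouse testis. Such cultures can convert to mGS (multipotent germline stem) cells, which are pluripotent. The embryonic stem (ES) cells are the line R1. The last culture holds GS cells of Trp53 knockout mice, with the strain name ICR in its label; no strain or age is named for the other cultures, and no number of lines or animals is given for any. GS and knockout GS cells grew in a modified StemPro-34 medium, mGS and ES cells in standard ES cell medium, so cell type and medium cannot be told apart. The stated aim was to find molecules that take part in the conversion of GS to mGS cells. Trp53 was not analysed here, and the knockout label has no check at the gene it names. With 1 array a group no difference has a replicate check, no p-value is given, and every statement compares these arrays.

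The respiratory chain passes electrons from NADH (complex I) and succinate (complex II) through complex III and cytochrome c to oxygen at complex IV, and pumps protons across the inner mitochondrial membrane on the way. ATP synthase uses the proton gradient to make ATP, and the ADP/ATP carriers exchange that ATP for cytosolic ADP. Several complex IV subunits and the carriers exist as paralogues with different tissue distributions: Slc25a4 is best known from heart and skeletal muscle, Slc25a5 from proliferating cells, and Slc25a31 from male germ cells and pluripotent cells. In male meiosis the X chromosome, which carries Slc25a5, is silenced, and the autosomal Slc25a31 is needed for spermatogenesis.

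Promoter sequence is shown for the carriers, for Cox7b2, which with Slc25a31 had the widest range over the arrays, and for Ndufb7, which divided the arrays the opposite way. Each is the 250 bases before the RefSeq gene start in GRCm38.p6, 5′ to 3′ on the gene's strand. Capitals mark a match to one of the motifs searched on both strands: TCCCGC (E2F6 type), GCATGC (core of the NRF1 motif) and CCGGAAG (GABP and other ETS factors). No motif searched overlaps another.
Slc25a31, chr3:40708621-40708870, plus strand: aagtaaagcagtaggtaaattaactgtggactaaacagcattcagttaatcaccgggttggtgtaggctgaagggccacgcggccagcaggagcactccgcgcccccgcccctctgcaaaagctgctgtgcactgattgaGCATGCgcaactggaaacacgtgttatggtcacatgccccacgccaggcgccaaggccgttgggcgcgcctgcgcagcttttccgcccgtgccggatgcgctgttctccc
Slc25a5, chrX:36795347-36795596, plus strand: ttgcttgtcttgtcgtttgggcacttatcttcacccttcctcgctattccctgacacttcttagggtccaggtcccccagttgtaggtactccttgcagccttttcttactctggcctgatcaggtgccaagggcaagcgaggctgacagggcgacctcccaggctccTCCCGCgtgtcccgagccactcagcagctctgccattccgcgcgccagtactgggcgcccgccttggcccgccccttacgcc
Slc25a4, chr8:46211063-46211312, minus strand: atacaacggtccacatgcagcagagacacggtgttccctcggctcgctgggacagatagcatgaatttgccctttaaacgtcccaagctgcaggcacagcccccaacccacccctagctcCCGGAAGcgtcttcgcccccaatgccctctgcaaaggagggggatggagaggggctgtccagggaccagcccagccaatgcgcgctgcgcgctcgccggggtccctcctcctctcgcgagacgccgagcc
Cox7b2, chr5:71548206-71548455, minus strand: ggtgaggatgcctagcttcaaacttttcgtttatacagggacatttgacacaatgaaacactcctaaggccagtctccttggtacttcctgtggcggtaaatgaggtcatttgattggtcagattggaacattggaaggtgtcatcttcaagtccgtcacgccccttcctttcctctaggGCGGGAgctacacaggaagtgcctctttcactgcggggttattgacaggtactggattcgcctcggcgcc
Ndufb7, chr8:83566508-83566757, plus strand: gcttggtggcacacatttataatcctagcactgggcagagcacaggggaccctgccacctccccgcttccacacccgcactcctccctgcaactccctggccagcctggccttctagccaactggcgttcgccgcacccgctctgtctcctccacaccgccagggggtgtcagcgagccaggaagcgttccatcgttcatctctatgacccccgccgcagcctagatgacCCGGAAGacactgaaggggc
Slc25a31 has the NRF1 core at position -110 from its start, and an E2F6-type match at position 21, just after the start, shown in 30 bases.
Slc25a31, chr3:40708879-40708908, plus strand: cagcgcccgcttTCCCGCcagggtaaagct
Slc25a5 has an E2F6-type match at -82, Cox7b2 one on the other strand at -70, Slc25a4 a GABP-type match at -130 and Ndufb7 one at -20. The windows of Uqcr10, Ndufa1 and Cox6b2 were searched too, are not shown, and held none of the motifs. Windows of 300 bases, which add the 50 bases after the start, held 22 CpG dinucleotides in Slc25a31, 18 in Slc25a5, 25 in Slc25a4, 15 in Ndufb7 and 10 in Cox7b2. Over the 32851 windows in the table the median was 7 CpG. Of those windows, 6562 or 20% held TCCCGC, 7.93% GCATGC and 8.86% CCGGAAG. Of the 61 windows that belong to 59 of the members, 36.1%, 11.5% and 24.6% held them, with a median of 19.0 CpG. A match is a description of the letters and shows no binding.

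Signals are array intensities, quantile normalized over the 4 arrays, and a log2 difference of 1 is 2-fold. A signal under the array median, 82.7, was raised to that floor, which makes a difference a lower bound ("at least"); a member under the floor on both arrays gives no difference. Of the 72 members, 65 were above the floor on all 4 arrays, 4 on 1 to 3 arrays, and 3 (Ndufb4, Cox4i2 and Cox8b) on none. Before normalization the median signal per array ranged from 75.7 (mGS) to 92.3 (knockout GS). Added control RNAs differed between arrays: the dap control gave 271 for GS and 255 for mGS, but 2545 for ES and 3055 for knockout GS, and the hybridisation control BioC read 602 on the knockout array against 3066 to 3499 on the others. The 3′ to 5′ signal ratio of beta-actin lay between 1.31 and 1.51. Germ cell markers summed to a signal of 68562 in GS and 69914 in knockout GS cells, but only 3782 in mGS and 1826 in ES cells. Pluripotent cell markers summed to 88264 in mGS and 75431 in ES cells, and to 6732 and 4975 in GS and knockout GS cells. All 8 germ cell markers were above the floor on both germline stem arrays, and all 7 pluripotent markers on both others. Sertoli and Leydig cell markers summed to 499 to 878, with 3 to 5 of 7 above the floor.

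Among the carriers, Slc25a31 (adenine nucleotide translocase 4, chromosome 3) gave a signal of 14480 in GS, 15184 in knockout GS and 338 in mGS cells, and one of 55.2, under the floor, in ES cells. Both germline stem arrays were high and far apart from both pluripotent ones. The mGS signal was 42.9-fold lower than GS, a log2 difference of -5.42, and ES was at least 175-fold lower than GS and at least 184-fold lower than the knockout. Between the pluripotent cultures, ES was at least 4.08-fold lower than mGS, where the gene was still above the floor. The germ cell markers above moved with it; their part in the difference was not tested. In these bulk cultures fewer cells that express a gene and less RNA per cell cannot be told apart.

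Slc25a5 (adenine nucleotide translocase 2, X chromosome), the carrier of dividing cells, ran the other way. Its signal was 8463 in GS, 4636 in knockout GS, 21828 in mGS and 20242 in ES cells. The mGS signal was 2.58-fold that of GS, and the smallest gap between a pluripotent and a germline stem array was 2.39-fold. All 8 of its probe sets were higher in mGS than in GS, by log2 differences of 1.23 to 2.27. Of these, 6 have identifiers that mark probes shared with other sequences; the 1 probe set whose identifier has no mark differed by 1.92. Slc25a4 (adenine nucleotide translocase 1, chromosome 8) was nearly level, with signals of 5242 in GS, 5611 in knockout GS, 6488 in mGS and 8050 in ES cells, and ES against GS at 1.54-fold. Markers of striated muscle, a tissue Slc25a4 is best known from, summed to 778 to 1394 over the 4 arrays, with 1 to 3 of 7 above the floor.

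**Figure D1:**
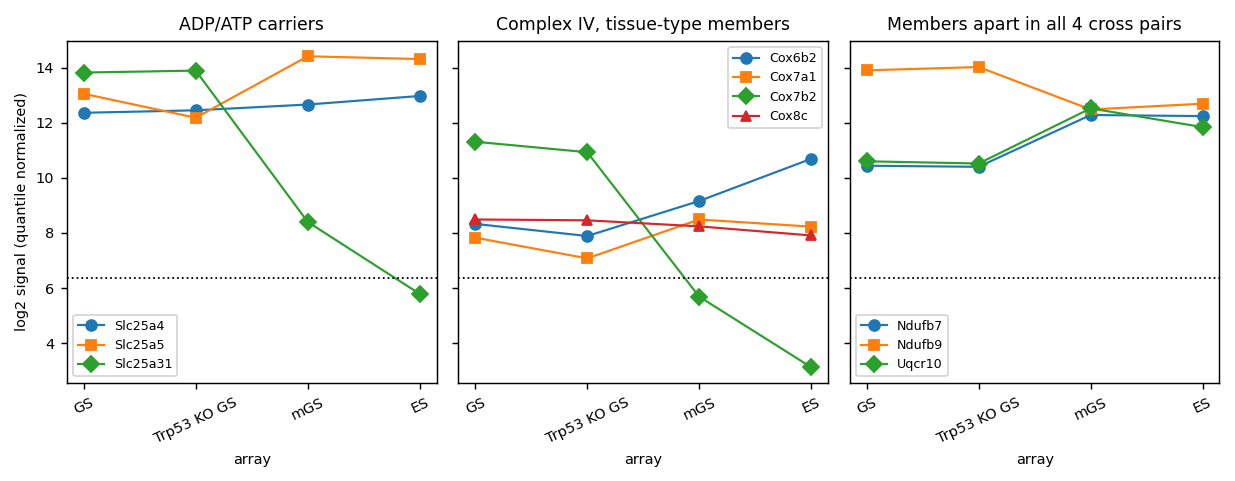
Log2 signal (vertical axis, quantile normalized) of the 3 ADP/ATP carriers, 4 tissue-type complex IV members, and 3 further members at least 2-fold apart in all 4 pairs of a pluripotent with a germline stem array. Each point is 1 array, lines only join the points of a gene, and the dotted line is the floor; points under it are drawn at their measured value. Slc25a31 and Cox7b2 are high on the GS and knockout arrays only, and Slc25a5, Ndufb7 and Uqcr10 are higher on the mGS and ES arrays.

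Complex IV, cytochrome c oxidase, holds the other germ cell paralogue. Cox7b2, a testis relative of the Cox7b subunit, gave 2537 in GS and 1946 in knockout GS cells, but only 51.5 in mGS and 8.77 in ES cells, both under the floor. It was at least 30.7-fold lower in mGS than in GS, and the smallest gap over the 4 cross pairs was at least 23.5-fold. It was measured by 1 probe set, as was Slc25a31.

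Other testis or muscle forms of complex IV did not follow Cox7b2. Cox6b2, the testis form of Cox6b, gave 322 in GS, 237 in knockout GS, 574 in mGS and 1657 in ES cells. It was therefore lowest where Cox7b2 was high, and 2.89-fold higher in ES than in mGS. Its common partner Cox6b1 gave 18843 in GS, 14654 in knockout GS, 13458 in mGS and 13214 in ES cells. Cox8c, a testis form of Cox8, gave 360, 352, 303 and 241 on the GS, knockout, mGS and ES arrays, a range under 2-fold; its partner Cox8a gave 3242, 4372, 4617 and 4497 in the same order. Cox7a1, the heart and muscle form of Cox7a, gave 227, 135, 360 and 300 in that order, and the general form Cox7a2 gave 22398, 17277, 18456 and 19949. Cox7a2l, which helps to join complexes III and IV into supercomplexes, gave 4855, 6238, 4048 and 4212.

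Cox4i2 and Cox8b were under the floor on every array, and Cox6a2, the muscle form of Cox6a, reached only 101 on the ES and 99.7 on the knockout array. Their partners were well above it: Cox4i1 gave 24467 in GS, 26688 in knockout GS, 16248 in mGS and 17829 in ES cells, and Cox6a1 gave 21828, 24467, 16233 and 18519. Ndufa4l2, a paralogue of Ndufa4 that is induced in low oxygen, reached 86.7 on the GS array and was under the floor on the others, while Ndufa4 gave 5331, 6052, 5709 and 4798 in that order. The subunits Cox5a and Cox5b, which have no paralogue here, differed by 0.27 and -0.03 on the log2 scale between mGS and GS. The only complex IV member at least 2-fold higher in mGS was Cox7c (7.14% of those compared, against 15.3% of all genes). It gave 665 against 256 on the GS array, with 386 on the ES and 214 on the knockout array. Its second probe set was higher by 1.15. These signals were low beside those of Cox4i1 and Cox6a1, and how well the Cox7c probe sets read its transcript was not tested.

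Between mGS and GS, 7 of the 68 members compared were at least 2-fold higher, or 10.3% against 15.3% of all genes, and 5 were at least 2-fold lower, or 7.35% against 16.5% of all genes. Together 17.6% of members and 31.8% of all genes were at least 2-fold apart. The median difference was -0.03 for the members and -0.04 for all genes, and the median size of a difference was 0.32 against 0.64. Of the 68 members 50 were within 1.5-fold, and of the 11981 genes 5553. The direction of the small differences rested on the scaling: 31 were above 0 and 37 below, but 42 and 26 with the values as deposited, and 45 and 23 with arrays centred on their medians. The split of calls went from 7 higher and 5 lower to 7 and 3 with either scaling. With the values as deposited, the median of all genes was -0.12, and the median shift of a single gene from its quantile value was -0.13.

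**Figure D2:**
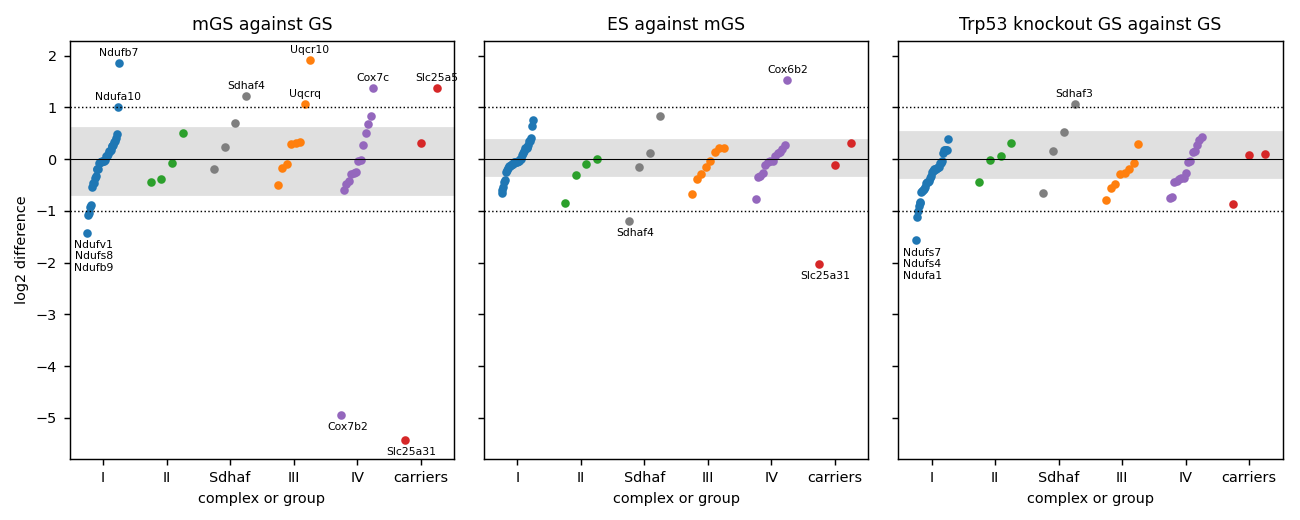
Log2 difference (vertical axis) of each member in 3 comparisons, by complex or group (horizontal axis), 1 point per gene from 1 array a group. Dotted lines mark 2-fold, the grey band holds the middle 50% of all genes, members past 2-fold are named, and Cox7b2 in the first panel and Slc25a31 in the second are lower bounds of size. Most members sit near 0 in each panel, and Slc25a31 and Cox7b2 stand at -5.42 and -4.94 in the first.

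In complex I, which takes electrons from NADH, 2 of 35 members were at least 2-fold higher in mGS, 5.71% against 15.3% of all genes. Another 3 were at least 2-fold lower, 8.57% against 16.5% of all genes. Ndufb7, an accessory subunit on the intermembrane side, gave 1385 in GS, 1350 in knockout GS, 4986 in mGS and 4836 in ES cells. The arrays fell into pairs without overlap, with 3.60-fold between mGS and GS, and the second probe set differed by 1.64. Ndufb9, an accessory subunit of the membrane arm, was the opposite, with 15319 in GS, 16572 in knockout GS, 5721 in mGS and 6597 in ES cells, or 2.68-fold lower in mGS. Its second probe set above the floor was lower by a log2 difference of -1.35.

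Ndufa10, an accessory subunit, gave 4270 in GS, 3703 in knockout GS, 8540 in mGS and 5666 in ES cells, which is 2-fold higher in mGS. The other subunits lower in mGS were catalytic core subunits: Ndufv1, which binds NADH and flavin, gave 9419 in GS, 7051 in knockout GS, 4557 in mGS and 4032 in ES cells, and Ndufs8, which holds iron-sulphur clusters, gave 13693, 7775, 6457 and 8212. The differences from GS were 2.07-fold and 2.12-fold. All 3 probe sets of Ndufv1 and all 6 of Ndufs8 were lower in mGS, but with arrays centred on their medians the differences were -0.56 and -0.78, under 2-fold. Each scaling picked the probe set of highest mean anew. For Ndufv1 the pick changed, so its -0.56 is not an effect of scaling alone. The other core subunits were closer to level between mGS and GS: Ndufs1 differed by 0.26, Ndufs3 by -0.20, Ndufs7 by 0.16 and Ndufv2 by -0.06. Of the 35 complex I members compared, 28 were within 1.5-fold, and the median was -0.04.

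Complex II, succinate dehydrogenase, had no subunit at 2-fold in any of the 3 comparisons. In mGS against GS, the flavoprotein Sdha differed by -0.44, the iron-sulphur subunit Sdhb by -0.39, and the membrane anchors Sdhc and Sdhd by -0.07 and 0.51. The probe sets of Sdha disagreed, with 1 and -1.29 on the log2 scale for the 2 others above the floor. Of the assembly factors, Sdhaf4, which helps to insert flavinated Sdha, gave 1207 in GS, 1747 in knockout GS, 2792 in mGS and 1221 in ES cells. It was thus 2.31-fold higher in mGS than in GS and 2.29-fold lower in ES than in mGS, with the mGS array the highest.

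Complex III, which passes electrons from ubiquinol to cytochrome c, had 2 of 8 members at least 2-fold higher in mGS, 25% against 15.3% of all genes, and none lower, against 16.5% of all genes. Uqcr10, a small accessory subunit, gave 1551 in GS, 1464 in knockout GS, 5874 in mGS and 3674 in ES cells, 3.79-fold higher in mGS. Its 2 other probe sets were higher in mGS by 1.92 and 2.29, but on them the ES and knockout arrays did not divide at 2-fold. On the one without a shared mark the ES array, at 493, lay below the knockout array, at 775, a difference of -0.65, and the knockout array was above GS by 1.42. Uqcrq, another small subunit, gave 3138, 1813, 6521 and 4972 on the GS, knockout, mGS and ES arrays, 2.08-fold higher in mGS. It fell under 2-fold with the mean of its probe sets (0.59) and on the brightest of its probe sets without a shared mark (0.70), which gave signals near the floor. The larger subunits differed less: Uqcrc1 by 0.30, Uqcrc2 by 0.32 and the Rieske iron-sulphur protein Uqcrfs1 by 0.33.

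Of the 7 members at least 2-fold higher in mGS, 4 lie on chromosomes 1 and 11. The median difference of all genes between mGS and GS was 0.26 on chromosome 1, home of Ndufa10 and Sdhaf4, and 0.19 on chromosome 11, home of Uqcr10 and Uqcrq. In ES against mGS those chromosomes had medians of -0.37 and -0.35. With the chromosome's median subtracted, Ndufa10, Sdhaf4 and Uqcrq were under 2-fold in mGS against GS and Uqcr10 was at 1.73. The part of the chromosomes in these differences was not tested further.

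**Figure D3:**
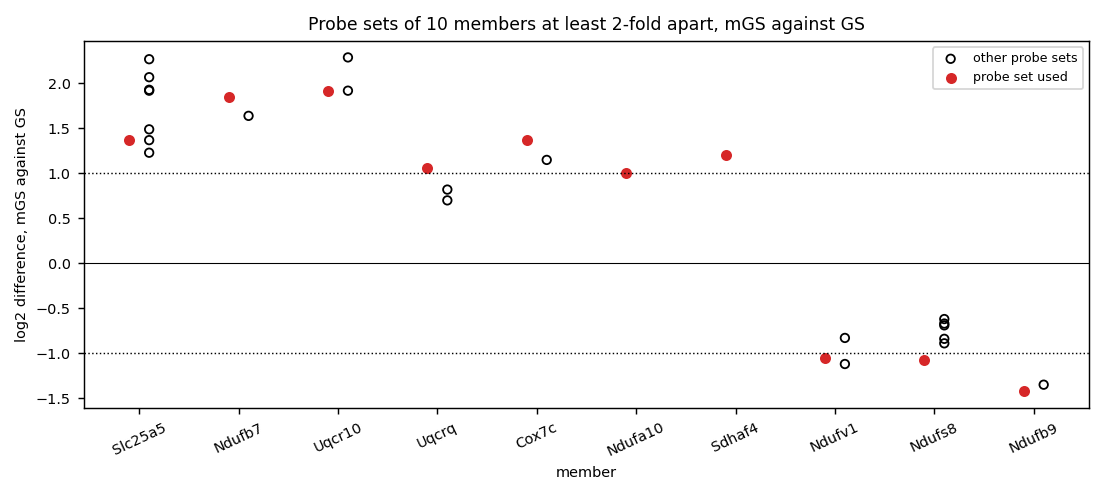
Log2 difference between mGS and GS (vertical axis) for every probe set of 10 members at least 2-fold apart, where a difference could be given; Cox7b2 and Slc25a31, with 1 probe set each, are left out. Filled points are the probe set used (highest mean), open points the others, and dotted lines mark 2-fold. The 8 probe sets of Slc25a5 lie between 1.23 and 2.27, and those of Ndufs8 between -1.08 and -0.62.

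Of the members with several probe sets that gave a difference between mGS and GS, 28 of 38 had all of them on the same side of 0. Only Sdha had probe sets at least 2-fold apart in both directions. The spread between probe sets of a gene was 0.31 (SD) on the log2 scale. Small differences of single members are thus of the size by which probe sets of a gene differ.

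ES and mGS cells, both pluripotent and in the same medium, were compared for 67 members. Only Cox6b2 was at least 2-fold higher in ES, 1.49% of members against 6.90% of all genes, and Sdhaf4 and Slc25a31 were at least 2-fold lower, 2.99% against 5.13%. In either direction that is 4.48% of members and 12.0% of all genes. The median difference was -0.05, against 0.00 for all genes, and 56 members were within 1.5-fold. With these settings no complex I, II or III subunit reached 2-fold. With arrays centred on their medians Sdhc did, at -1.12, and Uqcr10 did on its probe set without a shared mark, at -1.16, and in each case the lower members rose from 2 to 3. In complex I the differences ran from -0.65 for Ndufs1 to 0.75 for Ndufb1, in complex II to -0.85 for Sdhc, and in complex III from -0.68 for Uqcr10 to 0.22 for Uqcrfs1. Ndufs1, Sdhc and Sdhaf4 lie on chromosome 1 and Uqcr10 on chromosome 11, where the medians of all genes were -0.37 and -0.35. With the chromosome's median subtracted, Sdhaf4 was at -0.83, under 2-fold. Fibroblast markers, as carried by feeder cells, summed to a signal of 79123 on the ES array with 20 of 21 above the floor, against 23427 and 14 of 21 on the mGS array. On the GS and knockout arrays the sums were 5500 and 8549. Of that list, Lum was under the floor on all 4 arrays. The part of feeder cells in the differences was not tested.

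The knockout GS array was compared with GS for 69 members. A single gene, the assembly factor Sdhaf3, was at least 2-fold higher, 1.45% of members against 9.77% of all genes, and 3 complex I subunits were at least 2-fold lower, 4.35% against 6.93%, or 5.80% and 16.7% in either direction. Ndufa1, an X-linked accessory subunit needed for complex I assembly, gave 2152 on the knockout array, against 6400 on the GS, 7782 on the mGS and 9026 on the ES array, 2.97-fold under GS. Ndufs4, an accessory subunit whose loss causes a Leigh-like disease in mice, gave 1626 on the knockout array, against 3529, 3087 and 2664. Ndufs7, an iron-sulphur core subunit, gave 2035, against 4078, 4566 and 4131. In each the knockout array was the low one and the other 3 lay close together. Ndufs7 was just at 2-fold, and its other probe set differed by -0.48. The probe sets of Ndufs4 differed by -1.12, -0.60 and -0.33, the last 2 at low signals. Ndufa1 has 1 probe set, marked as shared, so averaging could not change it and it gave no value without such probe sets. With the probe sets of a gene averaged, the 3 other calls, Ndufs4, Ndufs7 and Sdhaf3, fell under 2-fold. Averaging also put Ndufv2 past 2-fold lower, at -1.25, with probe sets at -0.62, -1.31 and -1.82, and Ndufa10 past 2-fold higher, at 1.41, where its second probe set was under the floor on both arrays. Sdhaf3 gave 931 against 446 on the GS array, on chromosome 6, where the median of all genes was 0.51.

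Small differences below 0 made up most of the members on the knockout array. Of the 69, 50 were below 0 (72.5%, against 45.1% of all genes), and the median was -0.23 against 0.07. In complex I, 29 of 35 were below 0 with a median of -0.25, in complex III 7 of 8 with -0.27, and in complex IV 10 of 15 with -0.26. Some other mitochondrial lists also lay below 0. The ATP synthase genes had 11 of 17 below 0 and a median of -0.26, and the mitochondrial ribosome 52 of 76 and a median of -0.17. Of the ribosomal genes, 1 was at least 2-fold higher (1.32%, against 9.77% of all genes) and 5 lower (6.58%, against 6.93%). The assembly list had a median of 0.14. The knockout array was the lowest of the 4 for 33 of the 72 members, and for 32 of the 65 above the floor on all arrays. How often it was lowest over all genes was not counted. The direction below 0 held with the other scalings. With the values as deposited 54 of 69 were below 0 and the median was -0.34. With arrays centred on their medians 62 of 69 were, and the median was -0.55. There all genes had a median of -0.08, and the median shift of a single gene from its quantile value was -0.12. Centring also raised the members at least 2-fold lower to 8, with none higher, but no share of all genes was counted with it. The size therefore rested on the scaling. The low BioC signal and the high dap signal of the knockout array stand beside this difference, and their part was not tested.

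**Figure D4:**
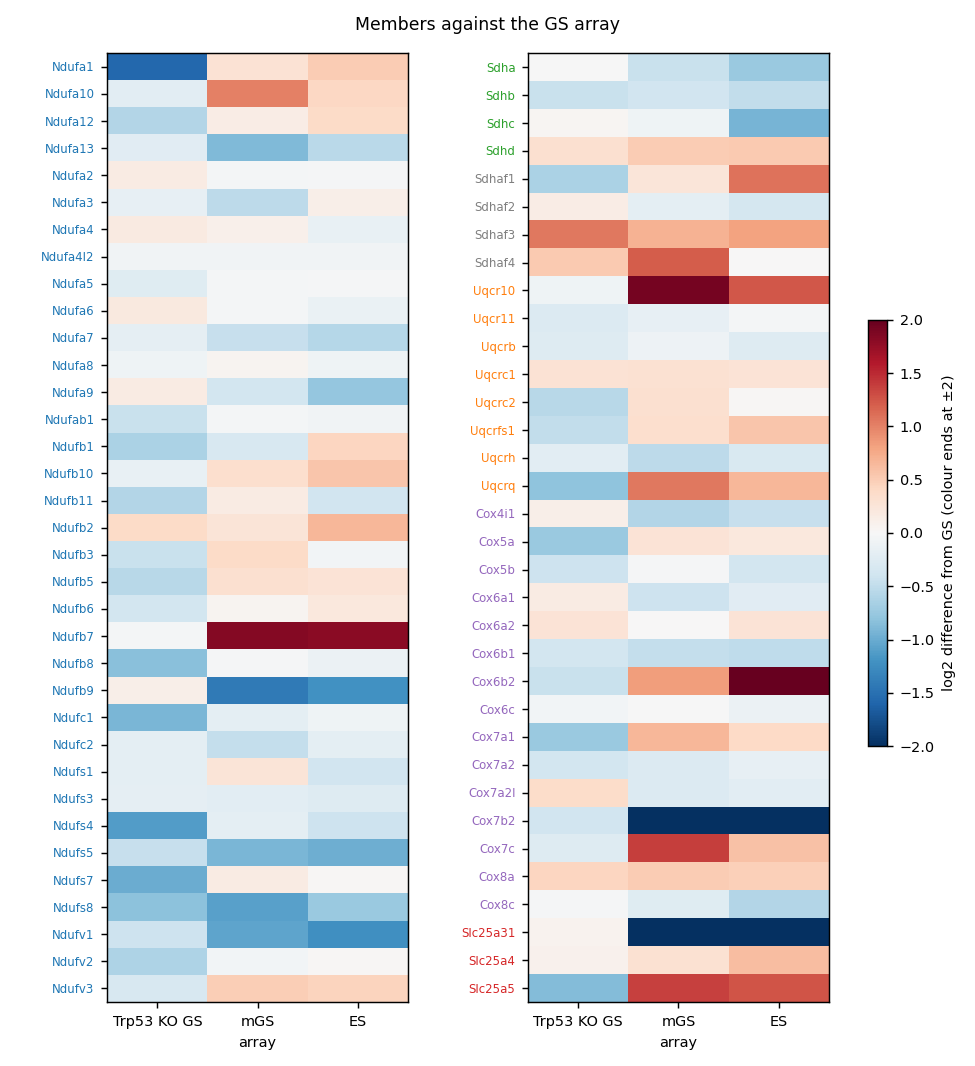
Log2 difference of each of 69 members from the GS array (colour, red higher and blue lower, ending at 2 in either direction), by array (columns), with signals under the floor raised to it. Gene names are coloured by complex as in the plot of differences; Cox7b2 and Slc25a31 in mGS and ES, and Cox6b2 in ES, go beyond the colour scale. The knockout column is mostly pale blue, and the mGS and ES columns share strong colours at Ndufb7, Uqcr10, Ndufb9, Slc25a5, Cox7b2 and Slc25a31.

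Across the division by medium, 3 members (Ndufb7, Uqcr10 and Slc25a5) were at least 2-fold higher in all 4 pairs of a pluripotent with a germline stem array, 4.35% against 7.65% of all genes. Another 3 (Ndufb9, Cox7b2 and Slc25a31) were at least 2-fold lower in all 4, 4.35% against 8.38% of all genes, which makes 8.70% and 16.0% together. The smallest gap was 3.49-fold for Ndufb7, 2.37-fold for Uqcr10, 2.32-fold for Ndufb9 and 42.9-fold for Slc25a31. Ndufb9 fell short of 2-fold with the values as deposited or centred on medians, and Uqcr10 with the mean of its probe sets (0.45). On its probe set without a shared mark the arrays of Uqcr10 overlapped, with ES below the knockout. Over the 4 arrays, the highest and lowest signals of a member were less than 2-fold apart for 50 of the 72, with signals under the floor raised to it. Ndufb4, Cox4i2 and Cox8b are among them by the floor alone. The 22 others include all 6 members of the division and 9 of complex I. Of the 65 members above the floor on all arrays, 45 were less than 2-fold apart. The share over all genes was not counted.

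The other genes of the pathway were taken from lists by symbol. Of 17 ATP synthase genes none was 2-fold apart between mGS and GS, against 31.8% of all genes, and their median was -0.09. The median was 0.24 with the values as deposited and 0.32 with arrays centred, so its sign rested on the scaling. In the knockout against GS, Atp5mpl was 2.69-fold higher, while Atp5g2, a c-ring gene, was 2.66-fold and Atp5h, a stator gene, 2.59-fold lower. Cytochrome c itself, the electron carrier between complexes III and IV, again showed a germ cell form on the germline side: Cyct, the testis cytochrome c, gave 2457 in GS, 4040 in knockout GS, 407 in mGS and 637 in ES cells, 6.03-fold lower in mGS. Somatic Cycs and the complex III haem protein Cyc1 each differed by -0.17. Hccs, which attaches haem to cytochrome c, was 3.71-fold lower in mGS. ND5, the 1 gene of the mitochondrial DNA that could be named, gave 45943 in GS, 36217 in knockout GS, 22804 in mGS and 14754 in ES cells, but was under 2-fold between mGS and GS with the other scalings.

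Of 40 assembly genes compared, which include the 4 Sdhaf members, 11 (27.5%, against 15.3% of all genes) were higher in mGS than in GS by 2-fold or more, and 1 was lower (2.50%, against 16.5%). Their median was 0.36. Examples are Fastkd2, a mitochondrial RNA-binding protein, at 3.68-fold, the complex III factors Uqcc1 at 3.17-fold and Uqcc3 at 2.47-fold, and the complex IV factor Coa3 at 2.41-fold. The complex I factor Timmdc1 was 2.11-fold lower. Of 76 mitochondrial ribosomal protein genes, 15 (19.7%) were higher by 2-fold or more and 2 (2.63%) lower. Their median was 0.48, and 0.52 as deposited. The largest were Mrps28 at 4.85-fold, Mrps24 at 4.23-fold and Mrpl27 at 3.53-fold. The 2 lower were Mrps6 at 3.02-fold and Mrps16 at 2.24-fold. Of the higher genes named, Fastkd2 lies on chromosome 1, and Coa3, Mrps24 and Mrpl27 lie on chromosome 11. Uqcc1, Uqcc3 and Mrps28 lie elsewhere. The medians of all genes on chromosomes 1 and 11 were 0.26 and 0.19, and these were not subtracted from the list values. The 68 members compared had a median of -0.03, or 0.18 as deposited and 0.26 centred. A difference between the lists was not tested.

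**Figure D5:**
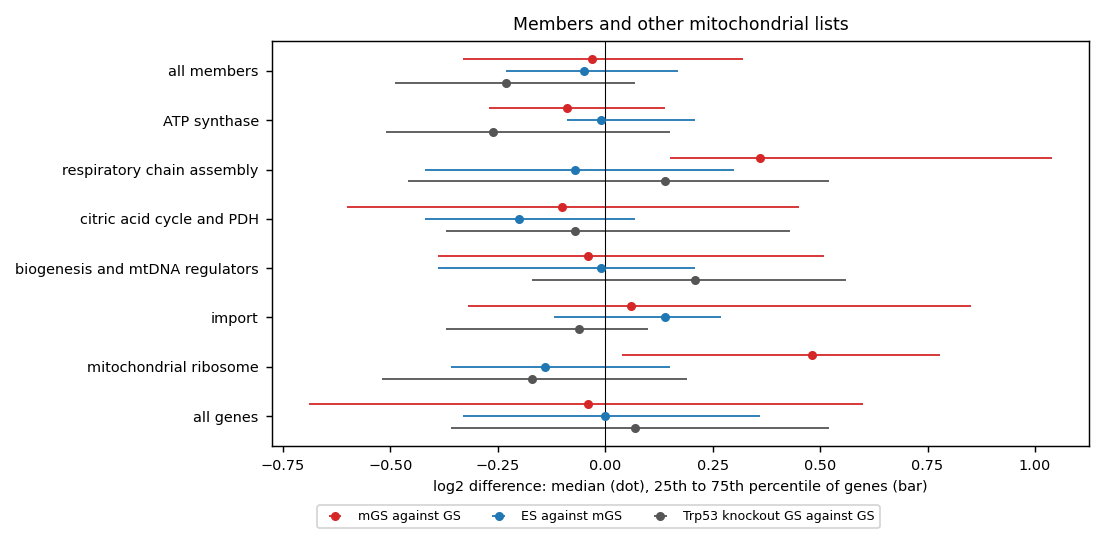
Median log2 difference (dots) and the middle 50% of genes (bars) of the members, 6 other mitochondrial gene lists and all genes, in 3 comparisons of 1 array with 1 array. The bars show the spread between genes, not between cultures. The assembly list (0.36) and the mitochondrial ribosome (0.48) sit to the right in mGS against GS, and the members (-0.23), the ATP synthase genes (-0.26) and the mitochondrial ribosome (-0.17) lie to the left of 0 in the knockout against GS.

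Among 26 genes of the citric acid cycle and pyruvate dehydrogenase, 2 were higher in mGS than in GS by 2-fold or more, 7.69% against 15.3% of all genes, and 3 were lower, 11.5% against 16.5%. The E1 alpha subunit of pyruvate dehydrogenase, like the carriers, has an X-linked somatic gene and an autosomal germ cell copy. Other X-linked genes of the lists differed between mGS and GS by -1.89 (Hccs) to 0.91 (Timm8a1). The median of all genes on the X chromosome was 0.03, and the part of X linkage was not tested. Pdha1, on the X chromosome, gave 1700 in GS, 2295 in knockout GS, 4940 in mGS and 5192 in ES cells, 2.91-fold higher in mGS. Pdha2, on chromosome 3, gave 1116 and 873 on the GS and knockout arrays and 26.3 and 18.2, under the floor, on the mGS and ES arrays, at least 13.5-fold lower. Pdp1, a phosphatase that activates the enzyme, was 6.41-fold lower and the inhibitory kinase Pdk3 2-fold lower, while the kinase Pdk4 was at least 2.08-fold higher. Idh2, a mitochondrial isocitrate dehydrogenase, was 4.97-fold lower in ES than in mGS and 2.41-fold lower in the knockout than in GS, and the kinase Pdk1 was 3.09-fold higher in the knockout.

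Of 19 regulators of mitochondrial biogenesis and DNA compared, 4 were at least 2-fold higher in mGS than in GS, 21.1% against 15.3% of all genes, and none lower, against 16.5%. They were the nuclear receptor Esrrb, at least 31.1-fold, which is also a pluripotency factor, the coactivator Ppargc1b, at least 4.45-fold, the mitochondrial rRNA methyltransferase Tfb1m, 2.56-fold, and Mterf1a, a mitochondrial transcription termination factor, 2.14-fold. In the outer membrane, Vdac1, the main channel for ATP and ADP, gave 2385 in GS, 868 in knockout GS, 11241 in mGS and 10438 in ES cells. It was 4.71-fold higher in mGS and 2.75-fold lower in the knockout than in GS. This order of arrays was shared with Slc25a5 and with other members, among them Ndufb5, Uqcrc2 and Cox5a. Vdac1 lies on chromosome 11, where the median of all genes between mGS and GS was 0.19. Vdac2 was 2.06-fold higher in mGS, and Slc25a14, an uncoupling protein relative, 2.25-fold lower. Of 23 import genes compared, 3 (Timm13, Tomm40 and Tomm40l) were 2.05 to 2.27-fold higher in mGS. Another 2 were lower: Timm8a2, at least 3.57-fold, and Timmdc1, listed here too by its symbol. Both shares lay below those of all genes, which were 15.3% higher and 16.5% lower.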

How the data were processed

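Total RNA was extracted with Trizol and labelled as biotinylated cRNA, per the labels' protocols. The authors deposited 1 linear intensity per probe set and array; the values have the same mean of 500 on every array after trimming 2% from each end. The sources used here name no summarising software. Of 45101 probe sets, 64 controls were left out. The 4 arrays were quantile normalized on the log2 scale, which hides a change in total RNA. Probe sets with 1 gene symbol in the platform annotation were kept, and each gene took the probe set of highest mean. Values under the array median (log2 6.37) were raised to it, and genes were counted at 2-fold. No test was possible with 1 array a group. Members named are those at least 2-fold apart, the paralogue pairs, the core subunits and the extremes per complex; list genes named are up to 8 per comparison past 2-fold. The members and lists were chosen with earlier results of these data known. Steps were tested on simulated data. Alternatives were other scalings, probe set choices, floors, a pseudocount of 32, a 1.5-fold call and chromosome medians. The other scalings picked the probe set of highest mean anew. Promoters came from RefSeq (GRCm38.p6). Python 3.11.15, numpy 2.4.6, pandas 2.3.3 and matplotlib 3.10.9 were used.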

Additional observations from a re-analysis of the deposited data

How the results depend on the processing

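No paired analysis was possible because each group has 1 array. In mGS against GS, ES against mGS and the knockout against GS, no member past 2-fold changed its sign in any alternative run. The gap of the division by medium is set to 0 where its pairs overlap, so a reversal of single pairs does not show in it. For Uqcr10 that gap was 0.00 without probe sets marked as shared, where ES lay below the knockout. For mGS against GS, the members at least 2-fold lower went from 5 to 3 with the values as deposited, arrays centred on their median, probe sets of a gene averaged, no probe sets marked as shared, or the chromosome median subtracted (then 4 were higher), and to 8 with no floor or a 1.5-fold call. Their median was 0.18 as deposited and 0.26 centred. For ES against mGS, the higher members were 2 with the mean of probe sets, 3 with a floor at the 30th percentile, and 4 with no floor or at 1.5-fold; the lower ones were 4 with no floor, 7 at 1.5-fold and 1 with chromosome medians subtracted; the centred median was -0.23. For the knockout, the higher members were 0 centred or with chromosome medians subtracted, and 2 without shared probe sets, at the 30th percentile or with no floor; the lower ones were 8 centred, 1 without shared probe sets and 14 at 1.5-fold; the centred median was -0.55. In the division by medium, 6 were higher at 1.5-fold. Without the ES array, an alternative chosen after seeing the data, 6 were higher too. Leaving out probe sets or floors changes which members can be compared (53 to 72). Shares of all genes past 2-fold were counted with the main settings only. Other causes were not tested. With 1 array a group, an array that stands apart cannot be told from its group.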
